A study of Mus musculus with 15 samples.

Results

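Myometrial contractile genes and the oxytocin receptor gene were followed on one-colour Agilent arrays of whole uterus from CD-1 mice (outbred) without ovaries. The members were 10 genes of 27648 named on the array: Acta2, Actg2, Myh11, Tagln, Cnn1, Des, Smtn, Mylk, Synpo2 and Oxtr. They were found by symbol, as the probes whose gene name in the files, or whose RefSeq accession under its current symbol, is one of these genes; 20 probes did so, and all 10 genes passed the filter on low signal. All mice were ovariectomized, so the vehicle group too lacked ovarian hormones. The groups were vehicle (100 µl saline), E2 2 h and E2 24 h (250 ng of E2 in 100 µl saline), and E3 2 h and E3 24 h (250 ng of E3 in 100 µl saline), with 3 arrays each, 15 in all. E2 was taken to be estradiol and E3 estriol, which has a further hydroxyl on its D ring. Neither the age of the mice nor the time at which vehicle uteri were taken is given in the sources used here. Whether the 3 arrays of a group stand for separate animals is not labelled, so the p-values cover only the spread between arrays, which could be technical.

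The myometrium is the smooth muscle wall of the uterus. Its cells shorten when myosin heads pull on actin filaments, after calcium and calmodulin switch on myosin light chain kinase, which phosphorylates the regulatory light chain. Oxytocin starts this sequence through its receptor, which couples to Gq and releases stored calcium, and estrogen is known to raise uterine oxytocin receptors. Most contractile genes are targets of serum response factor (SRF) and its partner myocardin, which act at a sequence called the CArG box.

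A level is the log2 signal of a probe minus the 75th percentile of its own array, and a gene is its brightest probe. Levels of different probes are not comparable, so each gene is compared only with itself. A change is a difference of group means of these levels, in log2 units, with its standard error (SE), and 1 unit is 2-fold. It was called at an adjusted p under 0.05 in limma, adjusted over all 20311 genes tested. Between arrays the 75th percentile lay at signals of 1053 to 1854, and 63.7% to 80.3% of spots were well above background. No member's brightest probe was saturated, and each was well above background on every one of the 15 arrays. The E3 24 h arrays stood further from each other than those of other groups: over all genes tested, the root mean square difference of an array from the other arrays of its group was 0.66 to 0.81 there and 0.38 to 0.50 in the other groups. All 3 vehicle arrays shared 1 slide that held no other group, so slide and vehicle cannot be told apart.

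The 9 contractile members are themselves the myometrial markers used here, so their detection on every array is no independent check of the tissue. The summed linear level of the 9 was 425 to 638 in vehicle, 414 to 529 with E2 2 h, 484 to 622 with E3 2 h, 627 to 1030 with E2 24 h and 806 to 972 with E3 24 h.

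The members moved in 3 ways. Oxtr was 12.7-fold higher 2 h after E2 and 15.8-fold higher 2 h after E3, and at 24 h its change from vehicle was not called with either. Of the 9 contractile genes, 4 were called higher at 24 h of E2 and 6 at 24 h of E3, by 1.58-fold to 2.76-fold. Over all genes 21.1% and 9.7% were called higher there. None of these contractile genes was called at 2 h. With 1 array left out, 2 to 7 of the 10 members were called at 24 h of E3, against 7 with all arrays. Synpo2, read by its brightest probe, followed neither: it was higher at 2 h and lower at 24 h, although its other probes did not all do so. No member was called different between E2 and E3 at either time.

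**Figure D1:**
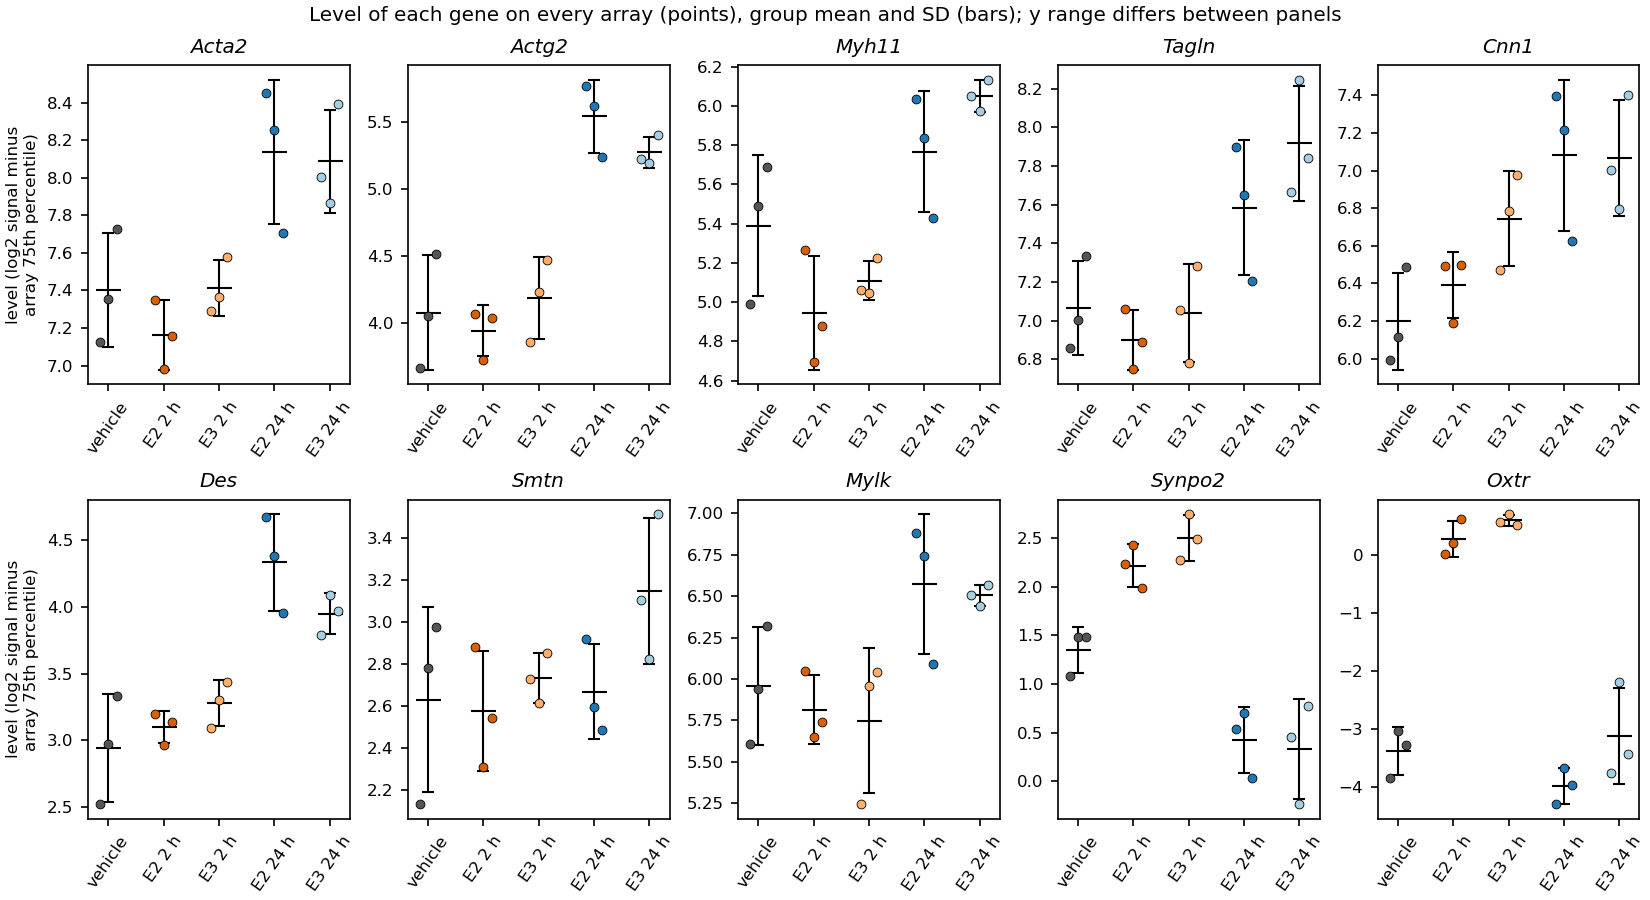
Level of each of the 10 genes on every array (points), with the group mean and SD (bars), in log2 signal minus the array's 75th percentile; the y range differs between panels. Oxtr stands between 0.01 and 0.71 at 2 h and at -2.19 or below elsewhere, and Actg2 between 5.19 and 5.77 at 24 h and at 4.52 or below elsewhere.

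The oxytocin receptor gene Oxtr encodes the receptor through which oxytocin makes the uterus contract. In vehicle its level was -3.85, -3.03 and -3.27. At 2 h E2 gave 0.01, 0.21 and 0.62, and E3 at the same time gave 0.58, 0.71 and 0.52. All 6 arrays at 2 h were above all 3 vehicle arrays. The rise was 3.67 ± 0.35 (SE, n = 3 per group; 95% interval 2.91 to 4.43; adjusted p = 8.4e-06) with E2. With E3 it was 3.99 ± 0.35 (3.23 to 4.74; adjusted p = 4.4e-06).

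E2 24 h arrays read -4.30, -3.67 and -3.98 for Oxtr, and E3 24 h arrays -3.76, -2.19 and -3.43. Both groups overlapped vehicle, and all 6 arrays were below every 2 h array. The change from vehicle was -0.60 ± 0.35 under E2 (adjusted p = 0.19) and 0.26 ± 0.35 under E3 (adjusted p = 0.63), neither called. Only with array weights in limma was the E2 difference called (-0.83, adjusted p = 0.014). E3 24 h replicate 2, at -2.19, was the highest of the arrays outside 2 h, and without it the E3 value was -0.21. Between 2 h and 24 h the level fell by 4.27 ± 0.35 with E2 (adjusted p = 2.0e-06), or 19.2-fold. With E3 it fell by 3.73 ± 0.35 (adjusted p = 6.6e-06), or 13.3-fold. The gene has a second probe, and both moved alike: the dimmer one rose by 3.49 and 3.86 at 2 h with E2 and E3, and differed from vehicle by -0.36 and 0.47 at 24 h. Per the file headers, which name the build mm7, the brighter probe lies at chr6:112637108-112637169 and the other at chr6:112649929-112649988; no annotation of that build was used here, so exon and UTR are not given.

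The RefSeq promoter table (GRCm38.p6) held 7 of the 10 members; Actg2, Myh11 and Tagln were not matched. The 250 bases before the start of Oxtr (chr6:112489826-112490075, minus strand) are shown because this gene carries the 2 h response. Capitals mark the only GGTCA, a half-site of the estrogen response element, 97 to 93 bases before the start. The 250 bases of Acta2 (chr19:34255374-34255623, minus strand) are shown beside it as the only contractile member in which CArG-like letters were found. Capitals there mark 2 matches to the CArG box with 1 other letter in its AT core, at 84 to 75 and 34 to 25 bases before the start.
Oxtr: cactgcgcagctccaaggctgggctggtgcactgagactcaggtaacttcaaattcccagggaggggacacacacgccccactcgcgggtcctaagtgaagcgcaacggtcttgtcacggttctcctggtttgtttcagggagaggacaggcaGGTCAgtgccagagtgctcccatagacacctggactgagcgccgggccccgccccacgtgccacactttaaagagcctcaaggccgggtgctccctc
Acta2: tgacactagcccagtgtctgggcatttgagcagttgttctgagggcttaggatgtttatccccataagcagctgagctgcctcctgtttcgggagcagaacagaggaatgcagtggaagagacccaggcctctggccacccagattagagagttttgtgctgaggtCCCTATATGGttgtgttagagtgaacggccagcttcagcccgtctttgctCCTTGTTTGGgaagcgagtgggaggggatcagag
Both strands were searched. GGTCA was found in 35.2% of all 32841 promoters of this length, and in 2 of the 7 members, Oxtr and Mylk. The full element, GGTCA and TGACC with any 3 bases between them, contains that half-site and was in 0.0639% of promoters and in none of the 7. The exact CArG box was in 1.47% of promoters and none of the 7, and the form with 1 other letter in 7.24% and in 1 of the 7. The AP-1 site TGANTCA was in 6.75% and in 1 member, Mylk. These are matches of letters, not sites of binding.

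At 2 h the contractile genes were near vehicle. Of the 9, 1 was called higher with E2, where 15.5% of all genes tested were called higher and 23.1% lower (38.7% in all). The same number, 1 of 9, was called higher with E3, beside 16.6% higher and 23.6% lower (40.2% in all). In both cases this was Synpo2, and 0 of 9 were called lower. The median change of the 9 was -0.14 with E2 and 0.10 with E3, and over all genes -0.14 and -0.16. The largest 2 h changes not called were Myh11 with E2 (-0.44 ± 0.20, adjusted p = 0.10) and Cnn1 with E3 (0.55 ± 0.23, adjusted p = 0.072). Myh11 was called lower without vehicle replicate 1 (-0.64, adjusted p = 0.027) or E2 2 h replicate 1 (-0.60, adjusted p = 0.043), and Cnn1 higher without vehicle replicate 3 (0.69, adjusted p = 0.048), among others.

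At 24 h of E2, 4 of the 9 contractile genes were higher than vehicle, Acta2, Actg2, Cnn1 and Des, and 1 was lower, Synpo2. Over all genes 21.1% were called higher and 22.3% lower (43.4% in all). The median change of the 9 was 0.62, against -0.02 over all genes. At 24 h of E3, 6 of 9 were higher, these 4 with Myh11 and Tagln, and again Synpo2 was lower, beside 9.7% higher and 10.7% lower over all genes (20.4% in all). The median was 0.68, against -0.004 over all genes. The E3 calls depended on the arrays in the fit. With only vehicle and E3 24 h in it, 0 members were called, and Actg2 stood at 1.20 (adjusted p = 0.065). Without vehicle replicate 1, vehicle replicate 2, or E3 24 h replicate 2 or 3, the number of members called fell from 7 to 3, 2, 3 and 4. What lowered the counts was not tested. The shares of all genes called in these fits are not given here, so a drop particular to the members was not shown. Quantile normalization left 3 members called at 24 h with either estrogen, Actg2 and Des higher and Synpo2 lower. With the array median as scale, the median of all genes moved from -0.14 to 0.04 (E2 2 h), -0.16 to 0.08 (E3 2 h), -0.02 to 0.20 (E2 24 h) and -0.004 to 0.14 (E3 24 h), so shifts of that size depend on the scale. The share of called genes that were higher moved with it, from 40.2% to 57.5%, 41.3% to 62.5%, 48.5% to 67.2% and 47.6% to 69.6%; for E2 against E3 at 24 h it moved from 56.9% to 67.6%, and for the difference of differences from 61.8% to 76.7%. With normexp it was 60.0% for E3 24 h. No member called against vehicle changed direction under these scalings or quantile normalization.

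**Figure D2:**
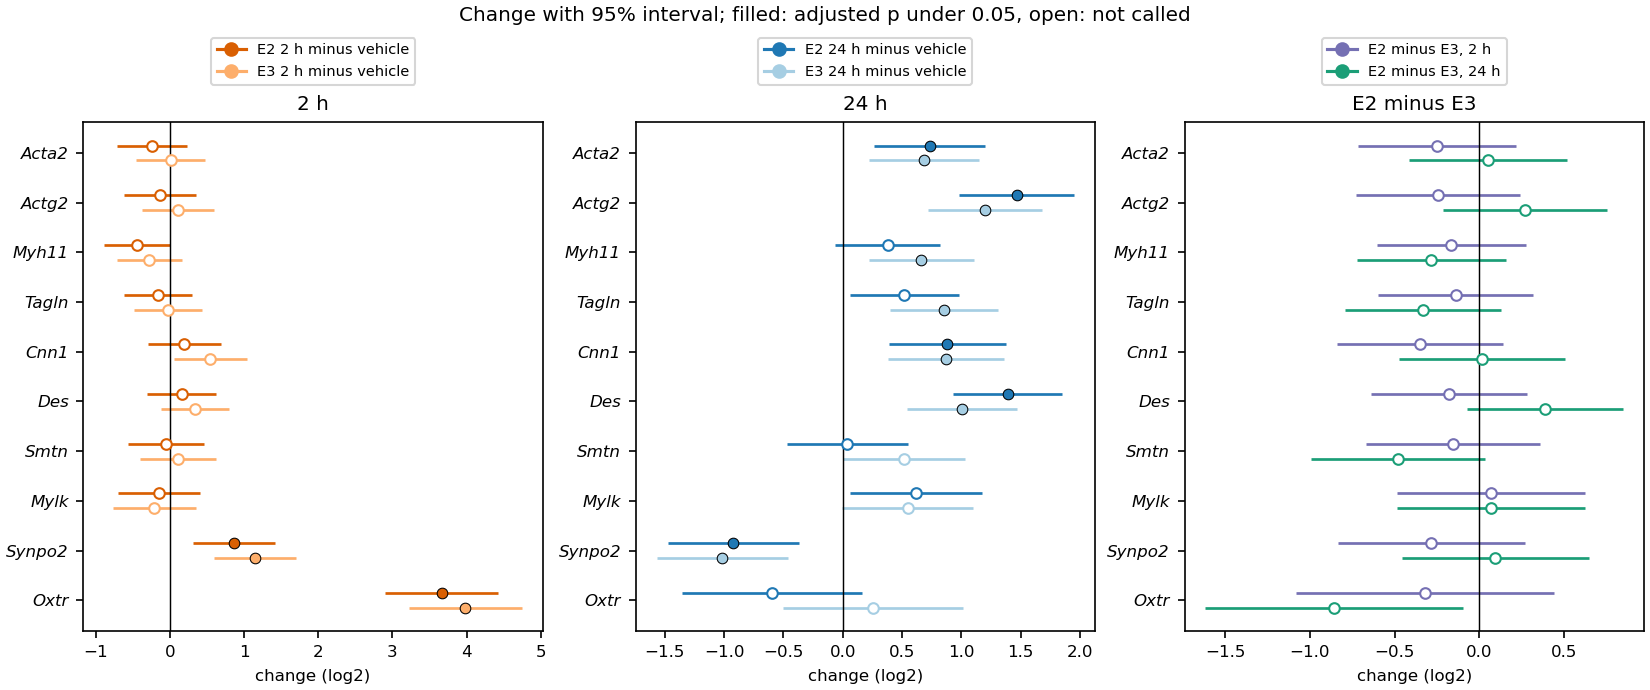
Change of each gene in log2 units with its 95% interval: at 2 h (left) and 24 h (middle) against vehicle, and E2 minus E3 at each time (right); filled points have an adjusted p under 0.05. Oxtr and Synpo2 are the members called at 2 h, and all intervals of E2 minus E3 include 0 except that of Oxtr at 24 h, from -1.62 to -0.10, whose adjusted p was 0.12.

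Smooth muscle actins form the thin filament. Acta2, alpha smooth muscle actin, read 7.12, 7.36 and 7.73 in vehicle and 8.45, 8.25 and 7.71 with E2 24 h. E3 24 h gave 8.0, 7.86 and 8.40. The E2 groups overlapped through E2 24 h replicate 3, whereas all E3 24 h arrays were above vehicle. The E2 rise was 0.73 ± 0.21 (adjusted p = 0.016) and the E3 rise 0.68 ± 0.21 (adjusted p = 0.043). Acta2 lost its E2 call without vehicle replicate 1 (0.59, adjusted p = 0.068), E2 24 h replicate 1 (0.58, adjusted p = 0.069) or E2 24 h replicate 2 (0.68, adjusted p = 0.054). The E3 call was kept in 4 of the 15 fits that left out 1 array, with 0.53 (adjusted p = 0.13) without E3 24 h replicate 3 and 0.55 (adjusted p = 0.16) without vehicle replicate 1.

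Actg2, the gamma actin of visceral smooth muscle, rose most among the 9 with both estrogens. Vehicle arrays read 3.66, 4.05 and 4.52, E2 24 h arrays 5.77, 5.62 and 5.24, and E3 24 h arrays 5.22, 5.19 and 5.41. No array at 24 h was as low as the highest vehicle array. The change was 1.47 ± 0.22 with E2 (2.76-fold; adjusted p = 3.2e-04) and 1.20 ± 0.22 with E3 (2.29-fold; adjusted p = 0.0067). The actin genes are close in sequence, and cross-hybridization between them was not tested.

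Myh11, the smooth muscle myosin heavy chain that makes the thick filament, read 4.99, 5.49 and 5.69 in vehicle. With E2 24 h it read 6.04, 5.84 and 5.43, which overlapped vehicle (0.38 ± 0.20, adjusted p = 0.15). With E3 24 h it read 6.05, 5.97 and 6.13, above all vehicle arrays (0.66 ± 0.20, adjusted p = 0.039). That call was kept in 7 of the 15 fits that left out 1 array, with 0.46 (adjusted p = 0.15) without vehicle replicate 1. The difference between the estrogens was itself not called (-0.28 ± 0.20, adjusted p = 0.38).

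Of the proteins that bind actin, calponin (Cnn1) damps myosin activity and transgelin (Tagln) bundles filaments. Cnn1 rose at 24 h, by 0.88 ± 0.23 under E2 (adjusted p = 0.0076) and by 0.87 ± 0.23 under E3 (adjusted p = 0.022). Its vehicle arrays lay between 5.99 and 6.49 and its 24 h arrays between 6.63 and 7.40, without overlap. The E3 call was lost without vehicle replicate 1 (0.77, adjusted p = 0.085), vehicle replicate 2 (0.83, adjusted p = 0.073) or E3 24 h replicate 3 (0.70, adjusted p = 0.067). Tagln rose by 0.85 ± 0.21 with E3 24 h (adjusted p = 0.018); with E2 24 h the difference of 0.52 ± 0.21 was not called (adjusted p = 0.064). The E3 call for Tagln was lost without vehicle replicate 1 (0.75, adjusted p = 0.075), vehicle replicate 2 (0.82, adjusted p = 0.062) or E3 24 h replicate 2 (0.69, adjusted p = 0.064), and the E2 difference was called without E2 24 h replicate 3 (0.71, adjusted p = 0.021) or vehicle replicate 3 (0.65, adjusted p = 0.043). Its second probe was called with both, at 0.61 (adjusted p = 0.017) and 1.10 (adjusted p = 0.0047). Smoothelin (Smtn), a marker of contractile smooth muscle, was not called in any comparison, with 0.04 ± 0.24 for E2 24 h and 0.52 ± 0.24 for E3 24 h.

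Des encodes desmin, the intermediate filament that ties dense bodies together. It read 2.52, 2.98 and 3.33 in vehicle, 4.67, 4.38 and 3.95 with E2 24 h, and 3.79, 4.09 and 3.97 with E3 24 h. All 6 arrays at 24 h were above vehicle. The rise was 1.39 ± 0.21 with E2 (2.62-fold; adjusted p = 3.3e-04) and 1.00 ± 0.21 with E3 (2.01-fold; adjusted p = 0.010).

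Mylk, the kinase that phosphorylates the regulatory light chain, read 5.61, 5.94 and 6.32 in vehicle. Its levels at 24 h were 6.88, 6.74 and 6.09 under E2, and 6.50, 6.44 and 6.57 under E3. The differences of 0.62 ± 0.25 (adjusted p = 0.068) and 0.55 ± 0.25 (adjusted p = 0.14) were not called. The E2 difference was called without E2 24 h replicate 3 (0.86, adjusted p = 0.019) or vehicle replicate 3 (0.80, adjusted p = 0.038). A second bright probe gave 0.66 (adjusted p = 0.039) and 0.53 (adjusted p = 0.13).

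Synpo2 encodes synaptopodin 2 (myopodin), an actin-bundling protein of muscle. Its brightest probe read 1.08, 1.49 and 1.48 in vehicle. With E2 2 h it read 2.23, 2.43 and 1.99, and with E3 2 h 2.27, 2.74 and 2.49. With E2 24 h it read 0.54, 0.70 and 0.04, and with E3 24 h 0.45, -0.23 and 0.78. Every array at 2 h was above, and every array at 24 h below, all vehicle arrays. The change was 0.87 ± 0.25 under E2 2 h (adjusted p = 0.017) and 1.15 ± 0.25 under E3 2 h (adjusted p = 0.0033). At 24 h it was -0.93 ± 0.25 under E2 (adjusted p = 0.011) and -1.02 ± 0.25 under E3 (adjusted p = 0.019). The E2 2 h call was lost without vehicle replicate 1 (0.73, adjusted p = 0.070) or E2 2 h replicate 2 (0.76, adjusted p = 0.070), and the E3 24 h call without vehicle replicate 2 (-0.95, adjusted p = 0.068) or E3 24 h replicate 2 (-0.74, adjusted p = 0.059).

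The Synpo2 result depends on the probe. The brightest probe (mm7, chr3:122949681-122949740) and the dimmest of the 3, A_52_P223127, moved the same way. The latter changed by 0.44 (adjusted p = 0.085) and 0.62 (adjusted p = 0.021) at 2 h with E2 and E3. At 24 h it changed by -0.46 (adjusted p = 0.065) and -0.30 (adjusted p = 0.27), so only its E3 2 h change was called. The remaining probe, A_52_P647260, differed by -0.41 (adjusted p = 0.059) and -0.004 (adjusted p = 0.99) at 2 h. At 24 h it was called lower with both estrogens, at -0.83 (adjusted p = 0.0015) and -1.06 (adjusted p = 0.0033). A further probe, A_52_P948080 (chr3:122915518-122915577), lies 34163 bases from the brightest. Its name in the files, 2310068J10Rik, is a synonym of Synpo2 in the RefSeq table, which places it outside the rule for members. Read alone, it changed by -0.45 ± 0.19 with E2 2 h (adjusted p = 0.082), -0.59 ± 0.19 with E3 2 h (adjusted p = 0.028), -0.06 ± 0.19 with E2 24 h and 0.20 ± 0.19 with E3 24 h. Counted as Synpo2 it would be the brightest probe of the gene, and the direction of the Synpo2 change would turn at 2 h with both estrogens and at 24 h with E3. Which transcripts the probes read was not tested.

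Other genes' probes also differed. Acta2 had 5 probes, of which the 3 to its RefSeq transcript rose by 0.73 to 1.00 with E2 24 h. A dim probe to the cDNA AK033744, 11885 bases from the brightest, instead fell by 1.93 ± 0.56 with E2 24 h (adjusted p = 0.015). Its group means lay between -5.32 and -3.39. The fifth, to the cDNA AK077294, differed by 0.21 (adjusted p = 0.56) with E2 24 h and by -0.00093 (adjusted p = 0.998) with E3 24 h. At 2 h this probe was called lower with E2 (-0.76, adjusted p = 0.044) and not with E3 (-0.58, adjusted p = 0.11). With the mean of its probes, in which the dim one weighs as much as the others, Acta2 was not called at 24 h. It differed by 0.18 (adjusted p = 0.44) under E2 and by 0.13 (adjusted p = 0.63) under E3. The mean of the Synpo2 probes was not called with E2 2 h (0.30, adjusted p = 0.22). The dim Mylk probe, to the cDNA AK044527, differed by -0.40 with E2 24 h (adjusted p = 0.13).

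**Figure D3:**
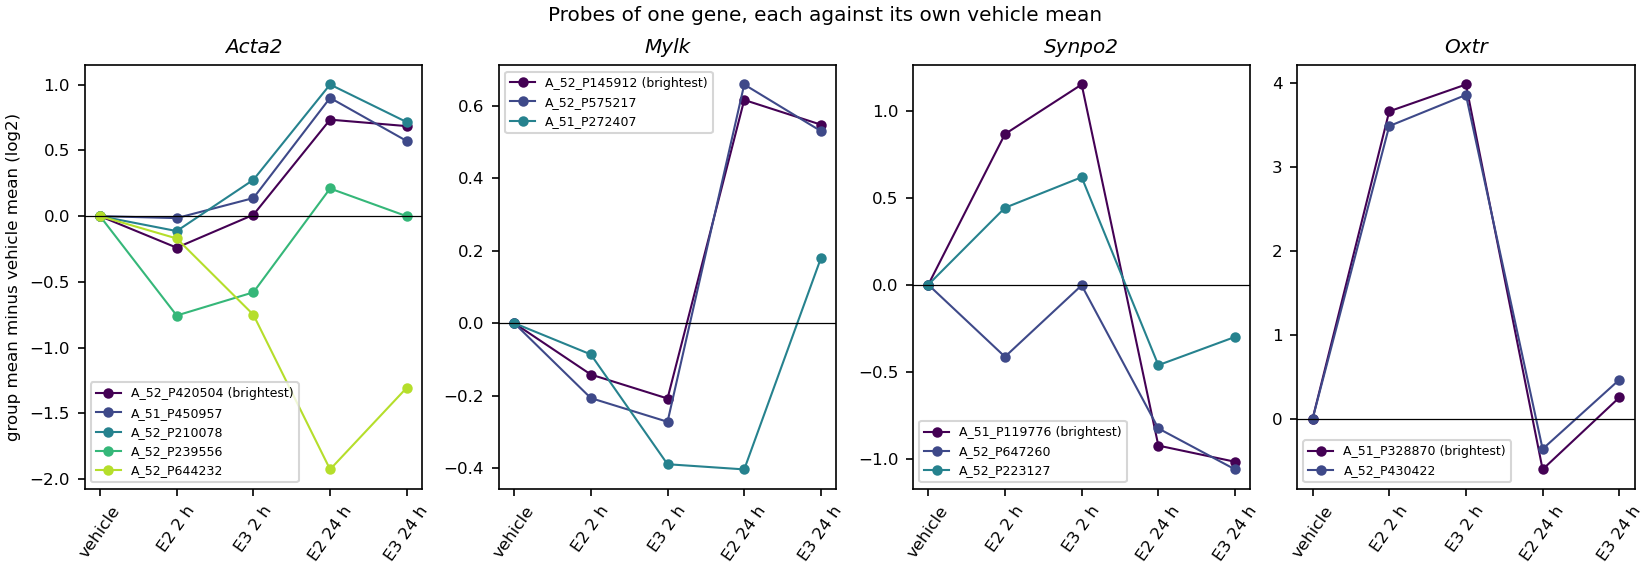
Group mean minus vehicle mean, in log2 units, for every probe of Acta2, Mylk, Synpo2 and Oxtr that the rule gave; lines join the 5 groups of one probe. The Oxtr probes run together, whereas the Acta2 probe A_52_P644232 falls to -1.93 with E2 24 h and A_52_P647260 of Synpo2 does not rise at 2 h.

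Comparing the times within each estrogen, 7 of 9 contractile genes were higher at 24 h than at 2 h of E2, and Synpo2 was lower by 1.79 ± 0.25 (adjusted p = 9.5e-05). Over all genes 30.6% were higher and 21.8% lower (52.3% in all). With E3, 6 of 9 were higher and Synpo2 was lower by 2.17 ± 0.25 (adjusted p = 3.3e-05), beside 29.9% higher and 19.8% lower (49.7% in all). Actg2 rose most, by 1.60 ± 0.22 under E2 (adjusted p = 8.0e-05) and 1.09 ± 0.22 under E3 (adjusted p = 0.0017). Smtn was not called with either, nor Cnn1 with E3 (0.32 ± 0.23, adjusted p = 0.25). The number of members called, Oxtr included, was 8 with E3, and 5 without E3 2 h replicate 1 or E3 24 h replicate 3. Slide as a fixed block among the treated arrays cannot check this count. E3 24 h replicates 1 and 3 share a slide with no other group, so that fit rests on replicate 2 alone.

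E2 and E3 were compared at the same dose and time in 2 pairs of groups. At 2 h 0 of 10 members were called, and 0% of all genes: limma gave 750 genes with an unadjusted p under 0.05 and a smallest adjusted p of 0.41. At 24 h 0 of 10 members were called, beside 15.7% of all genes (8.96% higher with E2 and 6.78% lower). At 2 h Oxtr differed by -0.32 (E2 minus E3), with an interval of -1.08 to 0.44. At 24 h it differed by -0.86 (-1.62 to -0.10; adjusted p = 0.12), which was called without E3 24 h replicate 1 (-1.17, adjusted p = 0.045). For all 9 contractile genes, the intervals at both times lay within 2-fold in either direction. The smallest adjusted p among them was 0.20, for Smtn at 24 h (-0.48 ± 0.24). The difference of these differences between the times was called for 0 of 10 members, beside 6.22% of all genes (3.85% higher and 2.38% lower). The comparisons of E2 and E3 with vehicle share the vehicle arrays.

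The contractile genes varied together from array to array. Each gene was centred on its mean over the 15 arrays, and the median of the 9 was taken on each array. It was -0.52, -0.28 and 0.09 in vehicle, and 0.70, 0.52 and -0.03 with E2 24 h. E2 24 h replicate 3 was thus below vehicle replicate 3, and the groups overlapped. E3 24 h gave 0.36, 0.32 and 0.68, above all vehicle arrays. Across the 15 arrays, which share treatment groups and scaling, Pearson's r between pairs of the 9 genes was -0.76 to 0.97 (36 pairs, median 0.79). Every negative value belonged to Synpo2, whose r with the other 8 ran from -0.76 to -0.21. After the group means were removed the median r was still 0.76 (-0.07 to 0.96), so much of this common movement was between arrays of the same group. The scaling shared by the genes of an array was not removed. The 75th percentile was 1800, 1715 and 1373 in vehicle, and 1254, 1338 and 1506 with E2 24 h. In these groups it ran opposite to the median of the 9. In the other groups the order was not fully opposite. The part of the scaling was not tested. Oxtr had r = 0.84 with Synpo2 and -0.72 to -0.20 with the other 8.

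**Figure D4:**
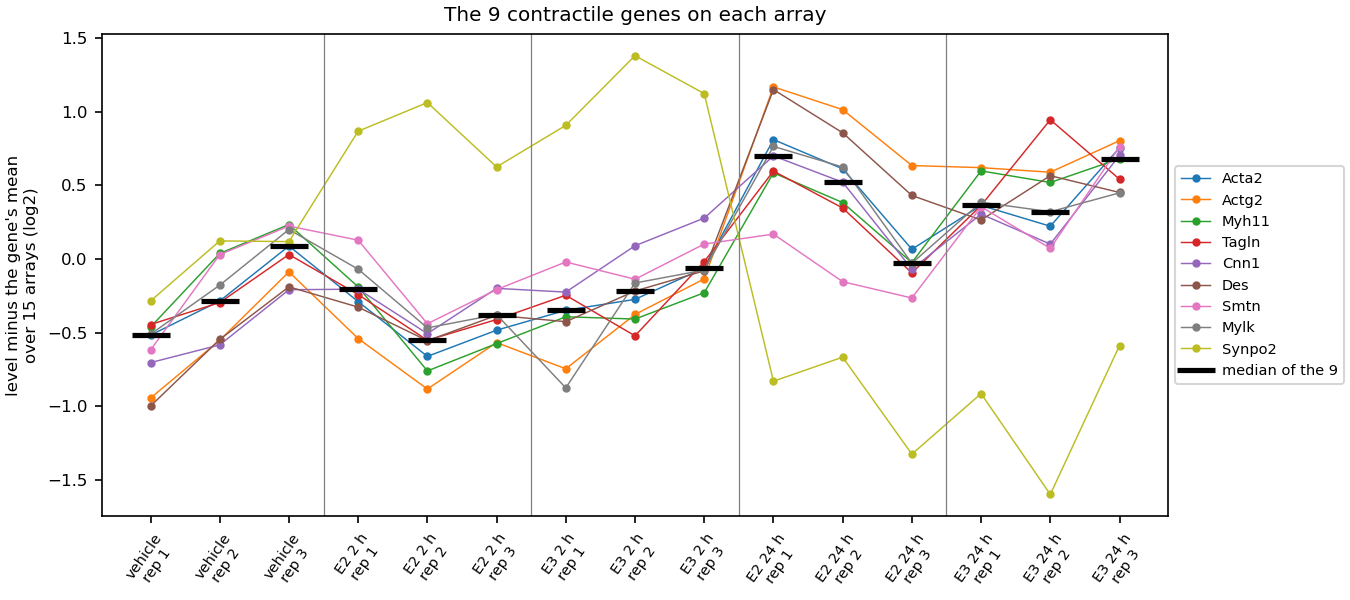
The 9 contractile genes on each of the 15 arrays, each as its level minus its own mean over the arrays (log2), with the median of the 9 as a black bar. The bars run from -0.55 to 0.70, and Synpo2 lies above the others at 2 h and below them at 24 h.

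Markers of other cell types moved between the groups as well, and their part in these results was not tested. In bulk tissue, fewer cells of a type and less RNA per cell cannot be told apart. Genes named here outside the member and related lists were chosen after their values were seen. All 8 stromal markers were well above background. Their summed linear level was 382 to 437 in vehicle, 256 to 371 with E2 2 h, 306 to 332 with E3 2 h, 654 to 737 with E2 24 h and 668 to 806 with E3 24 h. The sum is led by bright genes and hides members that went the other way: at 24 h of E2, 4 of the 8 were called higher (Col1a1, Col1a2, Col3a1 and Lum) and 3 lower (Dcn, Pdgfra and Hoxa10), and at 24 h of E3 4 were higher and 1 lower. At 2 h 0 were higher, and 4 were lower under E2 and 7 under E3.

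The 10 epithelial markers summed to 133 to 179 in vehicle, 109 to 124 and 96.8 to 165 at 2 h of E2 and E3, and 206 to 284 and 197 to 317 at 24 h. Of these, 3 were called higher at 24 h of E2 and 1 at 24 h of E3, and 0 lower. The stromal and epithelial sums at 24 h were above vehicle on all arrays, whereas the sum of the 9 contractile genes overlapped vehicle at 24 h of E2 and lay above it at 24 h of E3. The 7 pericyte and vascular smooth muscle markers summed to 61.7 to 71.9 in vehicle, 39.8 to 43.2 and 38.4 to 43.6 at 2 h, and 45.0 to 58.9 and 63.5 to 78.9 at 24 h. This sum at 2 h follows Kcnj8, with a mean level of 4.99 in vehicle and 2.49 and 2.55 at 2 h of E2 and E3. Pdgfrb (3.70 in vehicle, 4.16 and 4.09 at 2 h) and Cspg4 (1.33, then 1.44 and 1.74) went the other way. None of these 7 was called higher in any group, and 2 were called lower at each time of E2, 1 at 2 h of E3 and 0 at 24 h of E3.

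Markers of other muscle were looked at because some share the actin family with the members. The 11 skeletal muscle markers summed to 7.73 to 14.0 in vehicle, 8.0 to 9.56 and 9.16 to 15.2 at 2 h, and 32.4 to 49.8 and 14.1 to 33.6 at 24 h of E2 and E3. The 6 that were tested had a median change of 1.63 with E2 24 h, and 3 were called higher there: Tnni2 (2.37 ± 0.52), Tnnc2 (1.68 ± 0.58) and Acta1 (1.59 ± 0.28). With E3 24 h the median was 0.78 and 0 of 6 were called. The other 5, Myh1, Myh2, Myh4, Myog and Pvalb, did not pass the filter on low signal, and Pvalb was above background on 0 of 15 arrays. The 5 cardiac markers summed to between 0.46 and 1.63 over all arrays. Among them 1 was called higher at 2 h with each estrogen, Myh6, which was well above background on 8 of 15 arrays, and 1 was called lower.

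The 5 macrophage markers had sums of 105 to 158 in vehicle, 81.2 to 91.8 with E2 24 h and 135 to 342 with E3 24 h. With E3 24 h 3 of 5 were called higher than vehicle and 5 of 5 higher than at 2 h of E3; with E2 24 h 0 of 5 were called. At 2 h the sums were 59.0 to 147 with E2 and 70.7 to 114 with E3. The 5 endothelial markers summed to 7.15 to 8.08 in vehicle, 7.36 to 7.84 with E2 2 h, 6.86 to 7.90 with E3 2 h, 4.76 to 5.75 with E2 24 h and 5.26 to 7.06 with E3 24 h. All E2 24 h and E3 24 h arrays were below vehicle, and 3 and 1 of the 5 were called lower.

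The 5 adipocyte markers spanned a wide range within each group, with sums of 7.10 to 118 in vehicle and 3.89 to 83.0, 27.7 to 57.1, 17.6 to 79.8 and 7.61 to 72.2 at 24 h and then 2 h, each time E2 before E3. None was called against vehicle. The 3 erythrocyte markers on the array summed to 11.6 to 19.2 in vehicle, and all treated arrays lay higher, between 21.5 and 45.2. This sum is led by Hba-a1. Called higher were 2 of the 3 with E2 2 h, 1 with E3 2 h, and 2 at 24 h of either estrogen. The 4 mesothelial markers summed to 9.46 to 10.5 in vehicle, 11.8 to 12.5 and 11.6 to 13.6 at 2 h of E2 and E3, and 6.36 to 6.85 and 7.33 to 8.93 at 24 h. With either estrogen 1 of the 4 was called higher at 2 h and 1 lower at 24 h. Mean levels of Wt1 were above vehicle at 2 h, whereas those of Upk3b and Lrrn4 were below it.

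Lists of related genes give the setting of the members. Their counts stand beside the shares of all genes called: 15.5% higher and 23.1% lower with E2 2 h, 16.6% and 23.6% with E3 2 h, 21.1% and 22.3% with E2 24 h, and 9.7% and 10.7% with E3 24 h. Of 40 other contractile and cytoskeletal genes, 9 rose and 3 fell at 2 h under either estrogen. At 24 h of E2 12 rose and 8 fell, and at 24 h of E3 6 rose and 2 fell. The medians were -0.09, 0.05, 0.24 and 0.21. The beta tropomyosin gene Tpm2, whose product lies along the actin filament, was among the genes that rose at 24 h, by 1.24 ± 0.21 with E2 and 1.33 ± 0.21 with E3. The regulatory light chain gene Myl9, the substrate of Mylk, rose by 0.57 ± 0.18 (adjusted p = 0.025) and 0.69 ± 0.18 (adjusted p = 0.024). Dystrophin (Dmd), which links actin to the membrane, fell by 1.11 ± 0.11 and by 0.73 ± 0.11.

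Among those 40, Jph2, Hspb8 and Ppp1r14a rose at 2 h. Jph2, which holds the sarcoplasmic reticulum near the cell membrane, rose by 1.66 ± 0.25 with E2 and 1.71 ± 0.25 with E3. The small heat shock protein gene Hspb8 rose by 1.28 ± 0.16 and 1.3 ± 0.16. Ppp1r14a (CPI-17), an inhibitor of myosin phosphatase, rose by 1.08 ± 0.18 and 1.14 ± 0.18. The integrin subunit gene Itga8 was lower with E2 24 h (-1.15 ± 0.17). Of 10 genes of non-muscle actin and myosin, 8 rose and 0 fell at 2 h under either estrogen, with medians of 0.60 and 0.58. At 24 h 6 rose and 0 fell under E2, and 3 rose and 1 fell under E3. The shares of all genes at 2 h were 15.5% and 16.6% higher. Actg1, cytoplasmic gamma actin, rose by 1.35 ± 0.12 and 1.33 ± 0.12.

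Of 16 genes of smooth muscle transcription, 14 were tested. E2 2 h raised 5 and lowered 4, and E3 2 h raised 5 and lowered 5. E2 24 h raised 1 and lowered 4, and E3 24 h raised 2 and lowered 0. The shares of all genes called either way were 38.7%, 40.2%, 43.4% and 20.4%. The medians were -0.07, -0.09, -0.22 and 0.04. Srf read 2.58, 2.61 and 2.81 in vehicle and between 4.29 and 4.75 at 2 h. It rose by 1.85 ± 0.13 under E2 2 h (adjusted p = 7.9e-07) and 2.05 ± 0.13 under E3 2 h (adjusted p = 3.9e-07). At 24 h it differed from vehicle by -0.04 ± 0.13 and -0.34 ± 0.13, not called. Myocd, the coactivator that works with SRF, was not called in any comparison, at -0.04 ± 0.38 with E2 2 h and -0.75 ± 0.38 with E2 24 h. Klf4, a repressor of smooth muscle genes, rose by 2.13 ± 0.46 and 2.29 ± 0.46 at 2 h.

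Of 45 genes of uterotonic receptors and excitation coupling, 43 were tested. E2 2 h raised 8 and lowered 7, with a median of -0.11, and E3 2 h raised 7 and lowered 6, with a median of -0.15. E2 24 h raised 3 and lowered 17 of the 43, beside 21.1% higher and 22.3% lower over all genes, with a median of -0.45, and E3 24 h raised 1 and lowered 4, with a median of -0.15. Gja1, which encodes the gap junction protein connexin 43, rose like Oxtr at 2 h, by 1.42 ± 0.31 (adjusted p = 0.0033) and 1.37 ± 0.31 (adjusted p = 0.0041). The prostaglandin F receptor gene Ptgfr fell by 3.42 ± 0.54 with E2 2 h and by 3.39 ± 0.54 with E3 2 h. Rgs2, which shortens Gq signals, fell by 3.09 ± 0.23 and 2.74 ± 0.23, and the T-type calcium channel gene Cacna1h rose by 2.80 ± 0.25 and 2.96 ± 0.25. The vasopressin receptor gene Avpr1a, closest in kind to Oxtr, fell by 1.12 ± 0.36 with E2 2 h and by 1.53 ± 0.36 with E2 24 h. Under E3 Avpr1a differed by -0.80 ± 0.36 at 2 h (adjusted p = 0.093) and -0.95 ± 0.36 at 24 h (adjusted p = 0.077), not called.

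E3 24 h replicate 2, the array with the highest Oxtr level at 24 h, also stood apart in these genes. It read 0.07 for Gja1 against -1.57 and -1.37 on the other arrays of its group, and -2.22 for Ptgfr against 0.07 and -0.41. For Klf4 it read 5.53 against 3.45 and 3.24. In each case its value lay on the side of the 2 h arrays. This array shared its slide and scan day only with E2 2 h replicate 1. The other E3 24 h arrays were on another slide, scanned on another day. Replicate 2 also had the lowest share of spots well above background, 63.7%. The part of slide and scan day in its values was not tested.

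**Figure D5:**
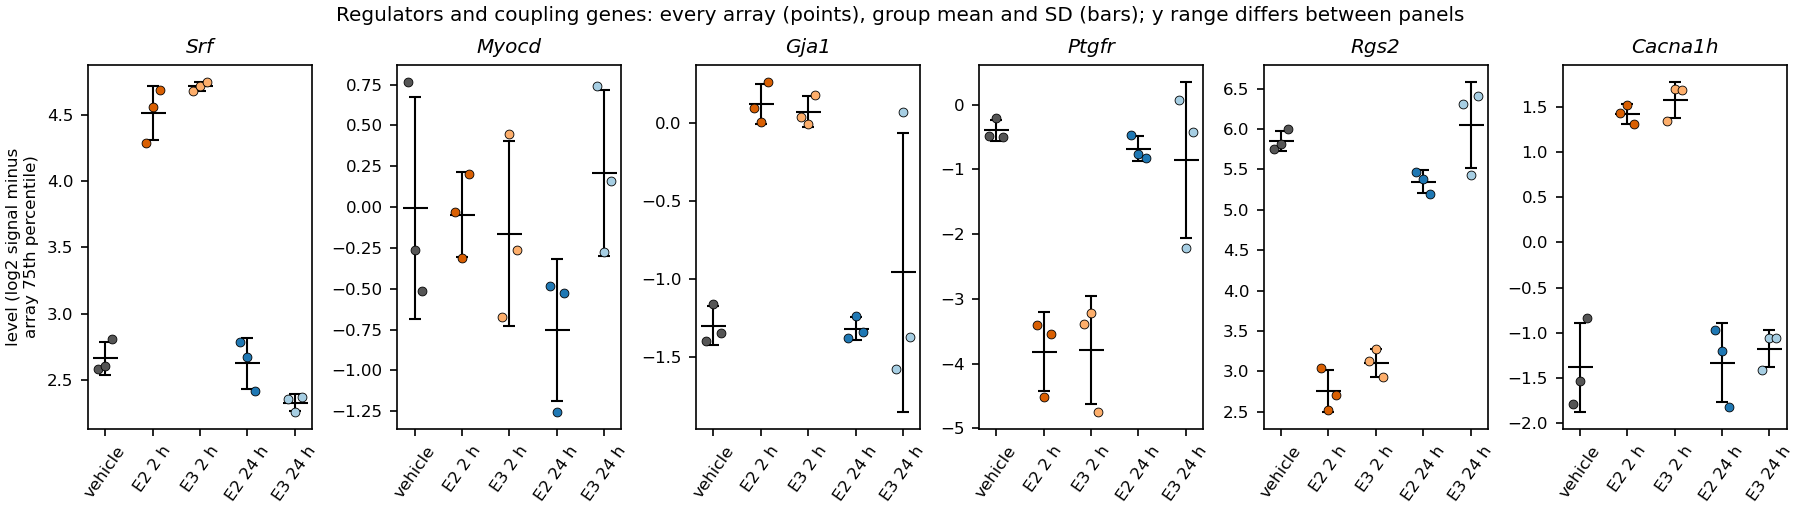
Levels of Srf, Myocd, Gja1, Ptgfr, Rgs2 and Cacna1h on every array (points), with the group mean and SD (bars), in log2 signal minus the array's 75th percentile; the y range differs between panels. Srf, Gja1 and Cacna1h are high and Ptgfr and Rgs2 low at 2 h, and 1 E3 24 h array stands at 0.07 for Gja1.

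Among 15784 other tested genes with a symbol, those most like Oxtr over the 15 arrays were Bcar3 (r = 0.992), Junb (0.988), Kcns3 (0.988), Cebpb (0.987) and Tmem200a (0.987). Junb is a subunit of AP-1 and Cebpb a transcription factor, and Kcns3 encodes a potassium channel subunit. Cebpb rose by 3.39 ± 0.22 with either estrogen at 2 h. Those most like the mean of the 9 contractile genes were Exoc7 (0.930), Tpm2 (0.929), Flna (0.927), Lmf2 (0.923) and Plod3 (0.920). Flna encodes filamin A, which cross-links actin.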

How the data were processed

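Uterine RNA (500 ng, Cy3) was measured on 15 arrays. What the authors deposited is an intensity per spot on a linear scale, as processed by the Feature Extraction software (9.5.3.1). Per the file headers it was background-subtracted and spatially detrended, with no scaling between arrays, and the value table of the series equals it.

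The log2 intensity was reduced by each array's 75th percentile over 43379 non-control spots. Outlier spots were left out, repeated spots averaged and 53 probes dropped. Of the remaining probes, 22923 were named by RefSeq accession, 124 by another accession, 6572 by symbol and 3070 by a unique synonym; 8432 kept the file's name. A synonym did not make a probe a member. That reading of the rule was settled after the values of the probe named 2310068J10Rik had been seen, and counting it as Synpo2 is an alternative chosen after seeing the data. A gene was its probe with the highest mean, tested where some group had it well above background on each of its 3 arrays.

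limma 3.58.1 (R 4.3.3) was fitted to the 15 arrays together, each group having its own mean, with Benjamini-Hochberg adjustment, 95% intervals and calls at an adjusted p under 0.05. The code was tested on simulated data with known answers. The arrays number 3 per group, which limits the precision.

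Alternatives were other scalings, background (normexp, offset 50), filters, probes, thresholds, variances, batches (6 slides, 3 scan days) and leaving out each array. Named genes beside the members are Myocd, Srf, Myl9, Gja1 and Ptgfr, genes most like a member by Pearson's r, and some of the called genes with the 3 largest rises and 3 largest falls per list, without overlap of arrays; 1 gene that this rule chose is not reported here. The members and lists were chosen with earlier results of these data known.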

Additional observations from a re-analysis of the deposited data

Results flagged for a closer look

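For 5 genes of the lists, the change from 2 h to 24 h differed between E2 and E3 by the test of that difference (limma, adjusted over all genes), which no member passed. As the E2 change minus the E3 change in log2 units, this was 0.54 for Tpm4, 0.71 for Cfl1, 0.90 for Pfn1, -1.08 for Itga8 and -2.19 for Pde5a. Over all genes tested, 6.22% were called for this difference (3.85% higher and 2.38% lower). The 5 were not set against the size of the lists, so a difference particular to the lists was not shown.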

How the results depend on the processing

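The number of members called was 2 for E2 2 h (1 to 3 leaving out an array), 2 for E3 2 h (2 to 3), 5 for E2 24 h (4 to 7), 7 for E3 24 h (2 to 7), 9 for 24 h against 2 h of E2 (6 to 9) and 8 of E3 (5 to 8). It was 0 for E2 against E3 at 2 h (0 to 0), 0 at 24 h (0 to 1) and 0 for the difference of differences (0 to 0). In the main fit the shares of all genes called, in the same order, were 38.7%, 40.2%, 43.4%, 20.4%, 52.3%, 49.7%, 0%, 15.7% and 6.22%. Shares under the alternatives are not set beside the counts here. The 1 for E2 2 h was without E2 2 h replicate 2, and the 1 for E2 against E3 at 24 h was Oxtr without E3 24 h replicate 1. Counts moved by over 1.5 times under the following, and the causes were not tested. Quantile normalization gave 3 for E2 24 h, 3 for E3 24 h, 5 for 24 h against 2 h of E2 and 5 of E3. The array median as scale gave 8 for E2 24 h. The mean of a gene's probes, and the synonym probe counted as Synpo2, each gave 1 for E2 2 h. An adjusted p under 0.01 gave 1 for E2 2 h, 3 for E2 24 h, 1 for E3 24 h and 5 for 24 h against 2 h of E3. A fit to the compared groups alone gave 0 for E3 24 h. Array weights gave 9 for E2 24 h. Slide as a random block (correlation 0.144) gave 4 for E3 24 h, scan day as a fixed block 4 and scan day 1 alone 3. Slide as a fixed block over treated arrays also moved the count for 24 h against 2 h of E3, but there E3 24 h rests on replicate 2 alone. The Acta2 change in that fit was -0.042.

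With the replicate block, 5 members were called for E3 24 h and 5 for E2 24 h; it moved no count by over 1.5 times. Same-numbered arrays did not deviate together: 7 of 30 pairs had r over 0.1 (-0.22 to 0.21), against 11 of 60 other pairs.

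Oxtr was called at 2 h under every alternative run, 3.26 to 3.86 for E2 and 3.57 to 4.22 for E3. Values that turned sign were these. With quantile normalization Actg1 was -0.030 with E3 24 h. With the mean of a gene's probes, Mef2d was 0.017 with E2 24 h. The synonym probe as Synpo2 gave -0.45 (E2 2 h), -0.59 (E3 2 h), 0.20 (E3 24 h), 0.40 and 0.79 (24 h against 2 h of E2 and E3). With each probe on its own, the lowest Acta2 value was -1.93 (E2 24 h), -1.30 (E3 24 h), -1.76 and -0.55 (24 h against 2 h of E2 and E3). The lowest Synpo2 values were -0.41 (E2 2 h) and -0.0035 (E3 2 h). The lowest Mrtfb value was -0.38 (E3 24 h) and the lowest Mylk value -0.32 (24 h against 2 h of E2). The highest value of Gata6 was 0.23 and of Mef2d 0.43, both for E2 24 h. Among 3110 values of members, main fit included, 129 lost a call and 30 gained one with the sign kept. A further 13 changed sign with a call on at least 1 side, some of them losing the call as well. Another 100, not called on either side, changed sign.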
